A study of Homo sapiens with 12 samples.

Results

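Replication-dependent core histone genes encode the H2A, H2B, H3 and H4 proteins that package newly made DNA. They were taken as every gene of the deposited tables whose symbol begins with HIST1, HIST2, HIST3 or HIST4 followed by H2, H3 or H4, with 1 row per symbol. The rule used names and no measured value, and it found 67 genes, the same in both tables, out of 23617 symbols in the Granta-519 table and 23615 in the JeKo-1 table. They divide into 18 H2A, 20 H2B, 14 H3 and 15 H4 genes. By gene cluster, 50 lie in HIST1, 13 in HIST2, 3 in HIST3 and 1 in HIST4. HIST1H2APS1, HIST2H2BA and HIST2H2BC are annotated as pseudogenes in RefSeq and were kept because the rule takes them in.

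The study measured poly(A)-selected RNA by sequencing in 2 human mantle cell lymphoma lines after cyclin D1 was silenced. The 4 groups, of 3 libraries each, were Granta-519 shCycD1, JeKo-1 shCycD1, Granta-519 shCtrl and JeKo-1 shCtrl. shCycD1 cells carried a short hairpin RNA against cyclin D1 and shCtrl cells a control hairpin. All 4 groups were infected with lentivirus and selected with puromycin. The series describes the replicates as biological, and every p-value below measures the spread between these libraries. Granta-519 cells grew in RPMI and JeKo-1 cells in DMEM, each with fetal bovine serum. Each line is 1 established culture. Neither the time after infection nor the hairpin sequences could be taken from the labels.

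Core histone mRNAs are made mainly in S phase, when the doubling of DNA calls for new nucleosomes. Their genes are mostly intronless and lie in clusters, and H2A and H2B genes often stand back to back around a shared upstream region. NPAT, a substrate of cyclin E and CDK2, activates their transcription. Most of their transcripts end in a short stem-loop bound by SLBP, the stem-loop binding protein, in place of a poly(A) tail. Some of the genes also give longer polyadenylated transcripts, known from cells that have left the cycle. A kit that selects poly(A) RNA, as used here, recovers the tailed form, so the levels below are not a census of all histone mRNA. Cyclin D1 acts with CDK4 and CDK6 in G1 and is overexpressed in mantle cell lymphoma.

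The sequences below show both features for genes on which the results turn. HIST1H2AG shares its upstream region with HIST1H2BJ, and in JeKo-1 these partners changed in opposite directions. HIST1H3H and HIST1H4H rose in both lines. Each window runs from 250 bases before to 50 bases after the gene start, 5′ to 3′ on the gene's strand, and is credited to RefSeq (GRCh38.p14). Capitals mark the octamer ATTTGCAT, the TATA motif TATAAA and the CCAAT motif, each searched on both strands, with overlapping matches joined.
HIST1H2AG promoter window (chr6:27132793-27133092, plus strand): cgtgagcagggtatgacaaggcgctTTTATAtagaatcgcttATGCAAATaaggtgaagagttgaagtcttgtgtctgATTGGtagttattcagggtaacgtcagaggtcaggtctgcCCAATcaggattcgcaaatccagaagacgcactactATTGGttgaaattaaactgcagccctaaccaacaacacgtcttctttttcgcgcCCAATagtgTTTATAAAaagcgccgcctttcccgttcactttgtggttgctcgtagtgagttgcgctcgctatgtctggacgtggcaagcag
HIST1H3H promoter window (chr6:27809801-27810100, plus strand): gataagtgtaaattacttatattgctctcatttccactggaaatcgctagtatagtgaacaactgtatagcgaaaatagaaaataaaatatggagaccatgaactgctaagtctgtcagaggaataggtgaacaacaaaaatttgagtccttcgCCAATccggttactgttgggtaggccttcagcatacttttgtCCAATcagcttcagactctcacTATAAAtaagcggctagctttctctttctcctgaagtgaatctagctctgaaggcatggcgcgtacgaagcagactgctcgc
HIST1H4H promoter window (chr6:26285485-26285784, minus strand): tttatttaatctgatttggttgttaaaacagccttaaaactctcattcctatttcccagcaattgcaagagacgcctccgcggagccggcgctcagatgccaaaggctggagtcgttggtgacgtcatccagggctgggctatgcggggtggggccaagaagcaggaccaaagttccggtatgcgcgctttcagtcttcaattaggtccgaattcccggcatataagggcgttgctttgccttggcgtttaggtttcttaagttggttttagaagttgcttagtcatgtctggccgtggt

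The stem-loop is shown for 4 of the 7 genes that rose in both lines, because these genes have annotated transcripts that run on past it. The others do not: such transcripts of HIST1H2AI and HIST1H2BD end at most 39 bases after it. No annotated transcript of HIST1H2AK holds it. Capitals mark the histone stem-loop, searched by its conserved stem and loop letters on the sense strand of GENCODE transcripts of GRCh38.
HIST1H2AC stem-loop: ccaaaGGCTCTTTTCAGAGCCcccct
HIST1H2AG stem-loop: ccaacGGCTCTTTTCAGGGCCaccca
HIST1H3H stem-loop: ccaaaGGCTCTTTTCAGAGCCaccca
HIST1H4H stem-loop: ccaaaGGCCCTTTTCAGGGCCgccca

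The longest annotated transcript goes on for 1128 bases past the stem-loop in HIST1H2AC, for 1761 bases in HIST1H2AG, for 769 bases in HIST1H3H and for 1655 bases in HIST1H4H. A promoter window was found for 59 of the 67 genes. The octamer was present in 68.8% of 16 H2A and 77.8% of 18 H2B windows, in 8.33% of 12 H3 windows and in 0 of 13 H4 windows, against 1.802% of all 27305 windows in the table. The H3 window that holds it, that of HIST1H3D, is the same window as that of HIST1H2AD. CCAAT was present in all 16 H2A, all 18 H2B and all 12 H3 windows and in 3 of 13 H4 windows, against 35.7% of all windows. TATAAA was present in 75.0% of H2A, 66.7% of H2B, 75.0% of H3 and 53.8% of H4 windows, against 11.95% of all windows. None of the 3 motifs was found in the HIST1H4H window. These matches describe the letters of the windows and say nothing of binding.

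The values are RPKM, reads per kilobase of gene scaled to the mapped reads of the library, taken back from the deposited logarithms. For JeKo-1 the base of the logarithm is inferred, and the values would differ if it were not the natural one. Read totals are not among the values. In Granta-519 the worth of 1 read puts the libraries at about 3800000 to 5000000 counted reads, and in JeKo-1 the depth is unknown. Between 19611 and 19968 symbols were above 0 in a Granta-519 library and between 17191 and 17960 in a JeKo-1 library. CCND1, which encodes cyclin D1, averaged 268 ± 47.3 RPKM in shCycD1 and 947 ± 87.2 RPKM in shCtrl libraries of Granta-519 (SD, n = 3 each), and 65.9 ± 1.39 RPKM in shCycD1 and 347 ± 42.3 RPKM in shCtrl libraries of JeKo-1. Of 9 B-cell and mantle cell lymphoma markers, 8 averaged at least 1 RPKM in Granta-519, CD5 being the exception, and all 9 did in JeKo-1. Of the markers of other cell types, CSF1R, a myeloid receptor, averaged 44.4 RPKM in Granta-519, while MPO and S100A8 were listed at 0 in every library of both lines. The summed myeloid markers ranged over 41.2 to 47.9 RPKM in shCycD1 and 47.1 to 52.9 RPKM in shCtrl libraries of Granta-519, and over 2.48 to 3.33 RPKM in shCycD1 and 2.95 to 3.20 RPKM in shCtrl libraries of JeKo-1. The summed T and NK markers stayed at or below 1.27 RPKM in Granta-519 and 3.70 RPKM in JeKo-1. The summed epithelial, fibroblast and kidney markers ranged over 11.9 to 14.2 RPKM in shCycD1 and 9.20 to 12.98 RPKM in shCtrl libraries of Granta-519, and over 2.42 to 3.26 RPKM in shCycD1 and 2.24 to 2.84 RPKM in shCtrl libraries of JeKo-1. The part of such markers in the histone values was not tested.

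Spike-in RNA was added, and its share moved with the groups in Granta-519: 5.42% to 6.50% of all RPKM in shCycD1 libraries, against 8.05% to 11.9% in shCtrl libraries. In JeKo-1 the share was 4.54% to 7.42% in shCycD1 libraries and 4.68% to 6.83% in shCtrl libraries. All changes below are measured against the rest of the same library. Spike-in scaling in place of this moved the median log2 change of all tested genes to 0.70 in Granta-519, where it was 0.03, and to 0.21 in JeKo-1, where it was 0.09. With that scaling 7018 genes of Granta-519 rose and 168 fell, against 2840 and 2303 without it. In JeKo-1, 2398 rose and 976 fell with it, against 4357 and 3303 without it. Spike-in scaling adds a library factor shared by all genes. Its fit took the spread of each gene from the trend with level alone (infinite prior degrees of freedom, against 2.90 in Granta-519 and 3.26 in JeKo-1 without it). Its p-values treat that shared factor as separate for each gene, so counts of calls with spike-in scaling are given only for comparison. The members' median stood 1.16 above that of all genes in Granta-519 and 1.17 above it with spike-in scaling. In JeKo-1 the median stood 0.33 below (−0.33, and −0.32 with spike-in scaling).

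In Granta-519 most core histone genes rose when cyclin D1 was silenced. Of the 67 genes, 56 passed the filter on low values (at least 1 RPKM in 3 of 6 libraries), and of these 36 rose, 7 fell and 13 were not called by limma at an adjusted p under 0.05. The 36 that rose are 64.3% of those tested, against 22.4% of all 12668 genes tested, and the 7 that fell are 12.5%, against 18.2%. Of the 36, HIST1H3J, HIST2H2BA and HIST2H2BF had no shCtrl library at 1 RPKM and were admitted by the shCycD1 libraries alone. The median log2 change was 1.19 over the tested core histone genes and 0.03 over all genes tested. Every shCycD1 library lay above every shCtrl library in 37 of the 56 genes, against 29.8% of all genes, and below in 6, against 24.2%. With spike-in scaling 42 of the 56 core histone genes rose and 3 fell, against 7018 and 168 of all 12668 genes tested. In bulk RNA, a change in the number of cells that make a transcript and a change in its amount per cell cannot be told apart.

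Summed over all 67 genes, Granta-519 held 2312 ± 58.2 RPKM in shCycD1 and 649 ± 6.78 RPKM in shCtrl libraries, a ratio of 3.56. The H2A sum was 1029 ± 47.1 RPKM in shCycD1 and 214 ± 18.9 RPKM in shCtrl libraries, and the H2B sum 597 ± 23.9 RPKM in shCycD1 and 193 ± 13.7 RPKM in shCtrl libraries. The H3 sum was 117 ± 10.3 RPKM in shCycD1 and 45.6 ± 9.19 RPKM in shCtrl libraries, and the H4 sum 569 ± 33.9 RPKM in shCycD1 and 196 ± 16.05 RPKM in shCtrl libraries. Their ratios were 4.80 for H2A, 3.09 for H2B, 2.57 for H3 and 2.90 for H4, and no class overlapped between the groups. These sums are given without a test.

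**Figure D1:**
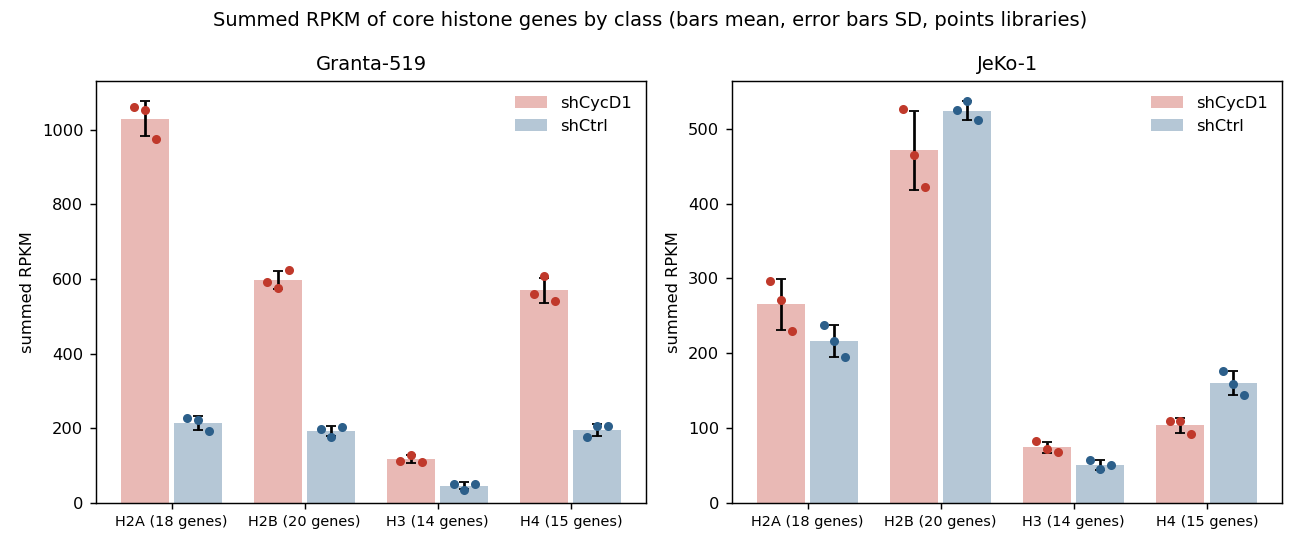
Summed RPKM of the core histone genes of each class (x axis) in each library, by line; bars are the mean of 3 libraries, error bars 1 SD, points single libraries, with shCycD1 in red and shCtrl in blue. In Granta-519 all 4 classes lie higher in shCycD1 (all genes together 2312 against 649 RPKM), whereas in JeKo-1 the H3 sum lies higher (through HIST1H3H, the other 13 H3 genes overlapping between the groups), the H4 sum lower, and the H2A and H2B sums overlap between the groups.

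Among H2A genes in Granta-519, which supply the partner of H2B in the nucleosome, 10 of 15 tested rose and 1 fell, with a median log2 change of 1.30. HIST1H2AC, an H2A gene of the HIST1 cluster, had 265, 272 and 239 RPKM in shCycD1 libraries, against 35.3, 21.7 and 18.4 RPKM in shCtrl libraries. Its log2 change was 3.39 ± 0.22 (SE; adjusted p = 0.000187), and the groups lay far apart. HIST2H2AA3 had 276, 263 and 266 RPKM in shCycD1 libraries, against 45.0, 47.8 and 38.5 RPKM in shCtrl libraries (log2 change 2.61 ± 0.09, adjusted p = 6.08e-05). HIST2H2AA4, a near-identical copy of it, followed at 2.55 ± 0.12 (adjusted p = 0.000105) and had the highest mean level of the class. Reads of these copies cannot be assigned with certainty. HIST1H2AL was the H2A gene that fell, with 4.83, 5.05 and 3.63 RPKM in shCycD1 libraries, against 6.34, 6.79 and 7.95 RPKM in shCtrl libraries. Its log2 change was −0.60 ± 0.14 (adjusted p = 0.0154), and with spike-in scaling it turned to 0.07 (adjusted p = 0.84).

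H2B genes rose most often in Granta-519: 13 of 17 tested rose and 1 fell, with a median log2 change of 1.73. HIST1H2BC, the divergent neighbour of HIST1H2AC, had 116, 114 and 108 RPKM in shCycD1 libraries, against 13.6, 17.2 and 19.2 RPKM in shCtrl libraries (log2 change 2.73 ± 0.12, adjusted p = 0.000105). HIST2H2BE, an H2B gene known for a polyadenylated transcript, had 40.2, 48.3 and 48.9 RPKM in shCycD1 libraries, against 7.42, 6.26 and 7.14 RPKM in shCtrl libraries (2.64 ± 0.11, adjusted p = 9.25e-05). HIST1H2BE reached 2.31 ± 0.28 (adjusted p = 0.00112). HIST1H2BK had the highest mean level of the class, with 149, 114 and 129 RPKM in shCycD1 libraries, against 29.7, 28.4 and 26.9 RPKM in shCtrl libraries (2.18 ± 0.11, adjusted p = 0.000132). In each of these genes all shCycD1 libraries lay above all shCtrl libraries. HIST1H2BH went the other way, with 26.7, 23.6 and 32.6 RPKM in shCycD1 libraries, against 48.6, 38.1 and 50.5 RPKM in shCtrl libraries. It fell by 0.72 ± 0.15 (adjusted p = 0.00971), though with spike-in scaling its change was 0.0023 (adjusted p = 0.995).

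H3 genes, which carry many of the modified tails of chromatin, were divided in Granta-519: 5 of 12 tested rose and 3 fell (8 and 2 with spike-in scaling), with a median of 0.86. HIST1H3H, the H3 gene with the highest mean level, had 56.2, 56.3 and 59.2 RPKM in shCycD1 libraries, against 6.72, 9.16 and 5.43 RPKM in shCtrl libraries (log2 change 2.95 ± 0.17, adjusted p = 0.000156). HIST1H3E changed by 1.85 ± 0.28 (adjusted p = 0.00265) and HIST1H3D by 1.67 ± 0.16 (adjusted p = 0.000441). Against these, HIST1H3B had 0.481, 0.559 and 2.58 RPKM in shCycD1 libraries, against 4.63, 5.80 and 8.41 RPKM in shCtrl libraries (−2.16 ± 0.45, adjusted p = 0.00899). HIST1H3B is a low gene: these values come to about 1.1, 1.1 and 5.4 reads in shCycD1 and 11.8, 13 and 18.6 reads in shCtrl libraries, by the step that 1 read is worth. Of its shCycD1 libraries only replicate 3 reached 1 RPKM, so HIST1H3B passed the filter only with the shCtrl libraries. HIST1H3I (−1.26 ± 0.41, adjusted p = 0.0451) and HIST1H3F (−0.97 ± 0.26, adjusted p = 0.0231) also fell, and the groups of HIST1H3I overlapped. Their calls rested on single libraries. HIST1H3I passed the filter by shCycD1 replicate 2 and shCtrl replicates 1 and 3 alone. It was not called without shCycD1 replicate 1 (adjusted p = 0.13) or 3 (adjusted p = 0.114). HIST1H3F was not called without shCycD1 replicate 1 (adjusted p = 0.0786) or 2 (adjusted p = 0.0602), or without shCtrl replicate 1 (adjusted p = 0.0693).

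H4 genes were divided in Granta-519 as well: 8 of 12 tested rose and 2 fell, with a median of 0.65. HIST1H4H, the H4 gene with the highest mean level, had 197, 180 and 158 RPKM in shCycD1 libraries, against 21.8, 18.3 and 25.0 RPKM in shCtrl libraries (log2 change 3.02 ± 0.13, adjusted p = 0.000105). HIST2H4B had 109, 146 and 119 RPKM in shCycD1 libraries, against 22.6, 29.4 and 24.2 RPKM in shCtrl libraries (2.27 ± 0.14, adjusted p = 0.000169). Its near-identical copy HIST2H4A changed by 2.17 ± 0.10 (adjusted p = 0.000105). Other risers were smaller, such as HIST1H4J at 0.57 and HIST1H4K at 0.55. HIST1H4B fell, with 1.27, 1.48 and 2.73 RPKM in shCycD1 libraries, against 6.12, 5.75 and 11.8 RPKM in shCtrl libraries (−1.83 ± 0.32, adjusted p = 0.00462). HIST1H4C fell by 0.85 ± 0.27 (adjusted p = 0.0404) with overlapping groups. The HIST1H4C call was lost without shCycD1 replicate 2 (adjusted p = 0.105) or 3 (adjusted p = 0.091) and without shCtrl replicate 2 (adjusted p = 0.0981) or 3 (adjusted p = 0.105).

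By their medians the genes that rose in Granta-519 were the more abundant. The mean RPKM over the 6 libraries had a median of 21.7 over the 36 genes that rose, of 4.85 over the 7 that fell and of 4.83 over the 13 not called. In the shCtrl libraries alone these medians were 9.40 for risers, 7.03 for fallers and 3.997 for genes not called. All 7 genes that fell lie in the HIST1 cluster, where 26 of 41 tested rose. In the HIST2 cluster 9 of 13 tested rose and 0 fell. HIST4H4, the H4 gene that stands alone, rose by 1.47 ± 0.44 (adjusted p = 0.0352).

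Other risers of Granta-519 covered a wide range of levels. HIST1H2AE had 65.6, 60.4 and 59.6 RPKM in shCycD1 libraries, against 12.7, 19.0 and 19.5 RPKM in shCtrl libraries (log2 change 1.85), and HIST2H2AC had 75.4, 66.4 and 64.1 RPKM in shCycD1 libraries, against 28.2, 33.4 and 21.9 RPKM in shCtrl libraries (1.30). HIST2H2BF, an H2B gene whose RPKM is held down by the long genomic span it is divided by, had 1.57, 1.79 and 1.38 RPKM in shCycD1 libraries, against 0.228, 0.184 and 0.197 RPKM in shCtrl libraries (1.56). All 36 risers had every shCycD1 library above every shCtrl library, but their calls come from these same values, so this is no separate support. Of the 13 genes not called, HIST1H4E had 8.44, 17.5 and 12.3 RPKM in shCycD1 libraries, against 17.9, 19.4 and 21.1 RPKM in shCtrl libraries (−0.65, adjusted p = 0.0666), and HIST2H3A had 6.27, 6.77 and 4.80 RPKM in shCycD1 libraries, against 4.31, 2.25 and 4.61 RPKM in shCtrl libraries (0.65, adjusted p = 0.0792). The groups of the other 11 overlapped. These genes were picked after their values were seen.

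**Figure D2:**
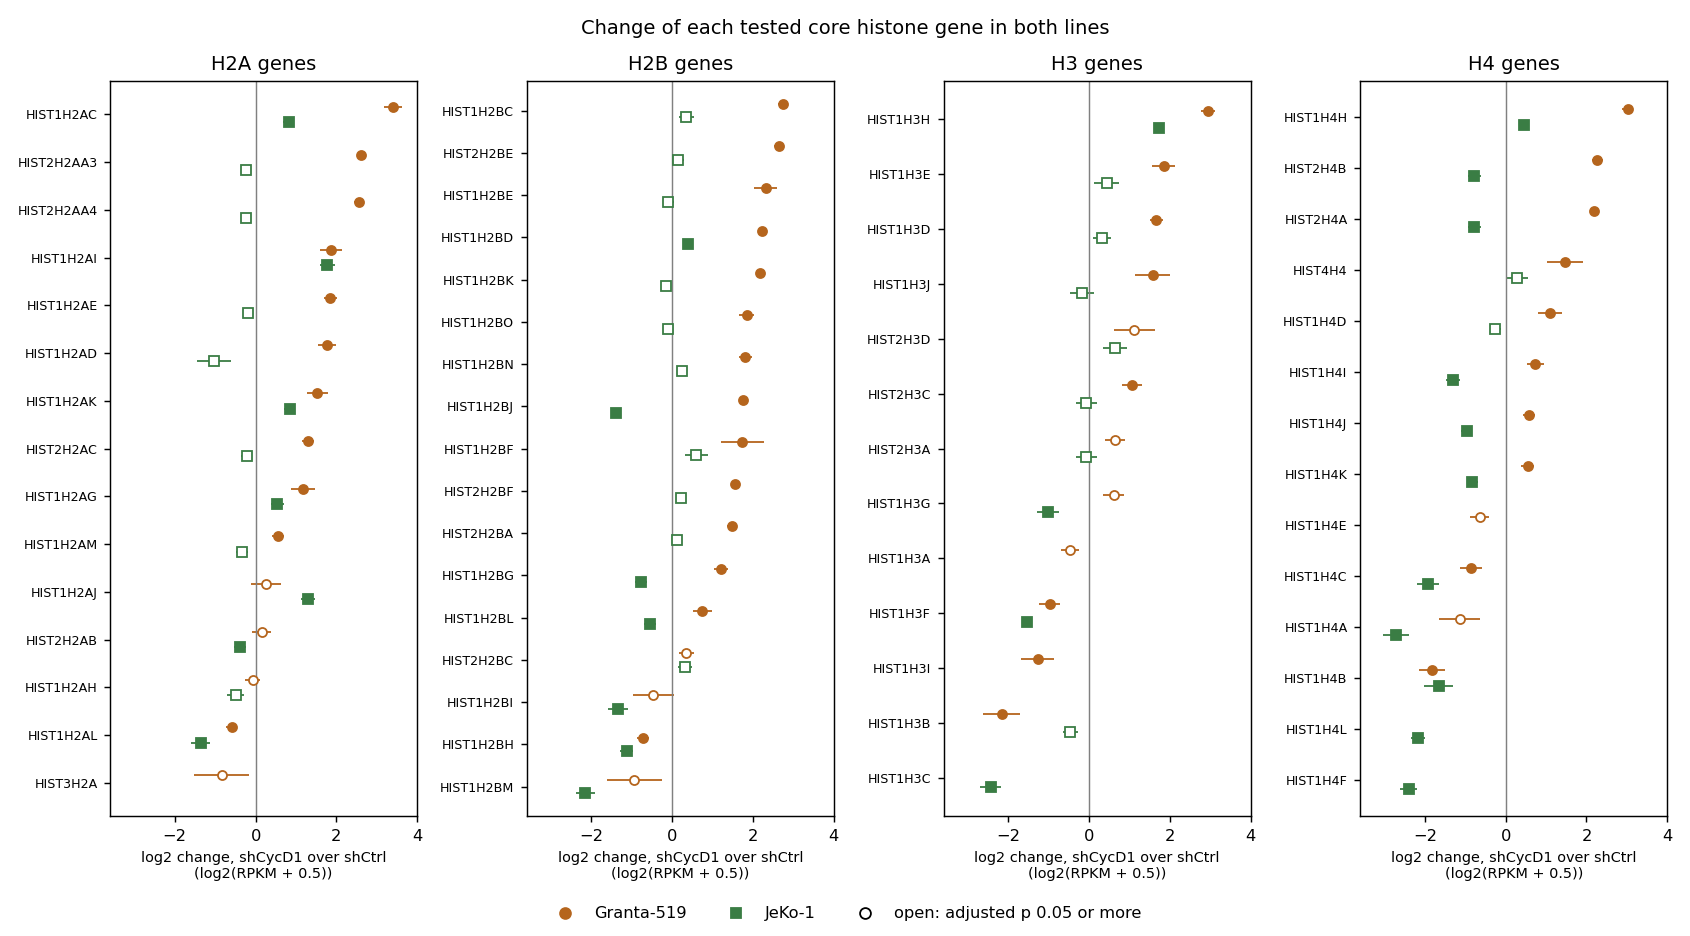
Log2 change, shCycD1 over shCtrl, on the log2(RPKM + 0.5) scale (x axis) of every core histone gene tested in at least 1 line (y axis, by class), with error bars of 1 SE; circles are Granta-519 and squares JeKo-1, filled where the adjusted p is under 0.05. Most Granta-519 points lie right of 0, up to 3.39, while the JeKo-1 points lie on both sides, with H4 genes mostly left of 0.

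In JeKo-1 the same family did not move as a block. Of 55 genes tested, 8 rose, 21 fell and 26 were not called. The 8 that rose are 14.5% of those tested, against 36.7% of all 11866 genes tested, and the 21 that fell are 38.2%, against 27.8%. Of those 21, 7 had no shCycD1 library at 1 RPKM and were admitted to the test by the shCtrl libraries alone. HIST1H2AL, HIST2H2AB, HIST1H3C and HIST1H4C had fewer than 3 shCycD1 libraries at 1 RPKM and passed only with the shCtrl libraries. The median log2 change was −0.24, against 0.09 over all genes tested. Every shCycD1 library lay above every shCtrl library in 9 genes, against 39.1% of all genes, and below in 23, against 30.5%. The counts leaned on single libraries: 5 genes rose without shCycD1 replicate 1, 13 fell without shCtrl replicate 1 and 12 fell without shCtrl replicate 3. Without shCtrl replicate 1 only 47 core histone genes passed the filter, and without shCtrl replicate 3 only 48.

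The sum over all 67 genes in JeKo-1 was 915 ± 101 RPKM in shCycD1 and 952 ± 48.2 RPKM in shCtrl libraries, with overlapping groups. The H3 sum was 74.3 ± 7.47 RPKM in shCycD1 and 50.8 ± 6.37 RPKM in shCtrl libraries, and the H4 sum 104 ± 9.88 RPKM in shCycD1 and 160 ± 16.4 RPKM in shCtrl libraries. Neither of these overlapped between the groups. HIST1H3H made up 47.4% of the H3 sum, and the other 13 H3 genes summed to 28.5 ± 5.14 RPKM in shCycD1 and 37.3 ± 5.84 RPKM in shCtrl libraries, with overlapping groups, a sum added after seeing the data. Read as log2 values, the table gives a log2 ratio of 0.21 for the H3 sum, against 0.55 here. The H2A sum, 265 ± 33.9 RPKM in shCycD1 and 217 ± 21.6 RPKM in shCtrl libraries, and the H2B sum, 471 ± 52.7 RPKM in shCycD1 and 525 ± 12.6 RPKM in shCtrl libraries, did overlap. HIST1H2BK made up 51.2% of the H2B sum.

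H2A genes in JeKo-1 gave 5 risers and 2 fallers among 14 tested (5 and 5 with quantile normalization), with a median log2 change of −0.23. HIST1H2AI had 31.6, 30.6 and 25.2 RPKM in shCycD1 libraries, against 10.8, 6.63 and 7.44 RPKM in shCtrl libraries (log2 change 1.77 ± 0.18, adjusted p = 0.000142). HIST1H2AJ had 14.5, 14.01 and 10.3 RPKM in shCycD1 libraries, against 6.04, 4.16 and 4.67 RPKM in shCtrl libraries (1.30 ± 0.17, adjusted p = 0.000505). HIST1H2AK changed by 0.84 ± 0.14 (adjusted p = 0.0013). HIST1H2AC, the H2A gene with the highest mean level in this line, had 98.8, 99.5 and 71.0 RPKM in shCycD1 libraries, against 52.3, 51.4 and 46.3 RPKM in shCtrl libraries (0.82 ± 0.14, adjusted p = 0.00151). In all 4 the groups stood apart. HIST1H2AL fell to 1.34, 0.627 and 0.626 RPKM in shCycD1 libraries, against 2.96, 3.66 and 2.26 RPKM in shCtrl libraries (−1.36 ± 0.23, adjusted p = 0.00168). Of its shCycD1 libraries only replicate 1 reached 1 RPKM, so HIST1H2AL passed the filter only with the shCtrl libraries. HIST2H2AB fell by 0.39 ± 0.15 (adjusted p = 0.0478), a call lost without any 1 of 5 libraries: shCycD1 replicate 2 (adjusted p = 0.131) or 3 (0.0696), or shCtrl replicate 1 (0.0755), 2 (0.0709) or 3 (0.131).

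Among H2B genes in JeKo-1, 1 of 17 tested rose and 6 fell (0 and 4 with spike-in scaling). The median log2 change was −0.10, and 0.04 with spike-in scaling. The riser was HIST1H2BD, with 66.8, 65.2 and 49.97 RPKM in shCycD1 libraries, against 49.3, 44.2 and 44.7 RPKM in shCtrl libraries (log2 change 0.38 ± 0.12, adjusted p = 0.0259). Its call was lost without shCycD1 replicate 1 (adjusted p = 0.083) or 2 (adjusted p = 0.0804), and without shCtrl replicate 2 (adjusted p = 0.0696) or 3 (adjusted p = 0.0684). HIST1H2BJ had 13.1, 11.5 and 10.1 RPKM in shCycD1 libraries, against 30.4, 32.1 and 30.8 RPKM in shCtrl libraries, far below them (−1.40 ± 0.10, adjusted p = 3.31e-05). HIST1H2BM had 0.782, 0.217 and 0.512 RPKM in shCycD1 libraries, against 3.19, 4.84 and 3.64 RPKM in shCtrl libraries (−2.15 ± 0.23). HIST1H2BI changed by −1.34 ± 0.25. Both passed the filter through the shCtrl libraries alone, so their p-values are not given. HIST1H2BK, the most abundant core histone gene of the line, had 267, 232 and 222 RPKM in shCycD1 libraries, against 259, 289 and 260 RPKM in shCtrl libraries. Its groups overlapped and it was not called (−0.17 ± 0.09, adjusted p = 0.139). With quantile normalization its change turned to 0.07, and without shCycD1 replicate 1 it was −0.24 (adjusted p = 0.0469).

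H3 genes in JeKo-1 gave 1 riser and 3 fallers among 11 tested (2 and 3 with spike-in scaling). The median log2 change was −0.07, and 0.05 with spike-in scaling. HIST1H3H, the most abundant H3 gene here too, had 50.6, 41.1 and 45.7 RPKM in shCycD1 libraries, against 14.2, 13.2 and 13.1 RPKM in shCtrl libraries (log2 change 1.73 ± 0.09, adjusted p = 8.59e-06). HIST1H3C had 0.297, 1.06 and 0.365 RPKM in shCycD1 libraries, against 5.38, 4.21 and 5.64 RPKM in shCtrl libraries (−2.44 ± 0.26, adjusted p = 0.00017). Of its shCycD1 libraries only replicate 2 reached 1 RPKM, so it passed the filter only with the shCtrl libraries. HIST1H3F changed by −1.52 ± 0.11, having passed the filter through the shCtrl libraries alone, and HIST1H3G by −1.01 ± 0.26 (adjusted p = 0.0118). Every shCycD1 library lay below every shCtrl library in these 3 genes.

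H4 genes fell most often in JeKo-1: 10 of 13 tested fell and 1 rose, with a median log2 change of −0.97. Of the 10, HIST1H4A, HIST1H4B, HIST1H4F and HIST1H4L had no shCycD1 library at 1 RPKM and passed the filter through the shCtrl libraries alone, so they could enter the test only by being low in shCycD1, and their p-values are not given. HIST1H4A had 0, 0.134 and 0.138 RPKM in shCycD1 libraries, against 3.87, 5.37 and 1.77 RPKM in shCtrl libraries (log2 change −2.72 ± 0.32). HIST1H4F had 0, 0.410 and 0.283 RPKM in shCycD1 libraries, against 3.54, 3.12 and 3.11 RPKM in shCtrl libraries (−2.40 ± 0.21). HIST1H4L was listed at 0 in all 3 shCycD1 libraries, against 1.59, 2.43 and 1.33 RPKM in shCtrl libraries, so no fold is given. The more abundant HIST2H4A and HIST2H4B had equal values, 23.4, 27.8 and 18.1 RPKM in shCycD1 libraries, against 43.8, 37.2 and 37.1 RPKM in shCtrl libraries (−0.77 ± 0.16, adjusted p = 0.00365 for each). The riser was HIST1H4H, with 34.1, 29.6 and 30.3 RPKM in shCycD1 libraries, against 26.8, 22.5 and 19.1 RPKM in shCtrl libraries (0.46 ± 0.13, adjusted p = 0.0158). Without shCycD1 replicate 1 the adjusted p of HIST1H4H was 0.0533, and with spike-in scaling 0 H4 genes rose and 7 fell. For genes this low, the pseudocount of 0.5 makes the fitted change smaller than the change of the RPKM.

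The genes that fell in JeKo-1 were low: their mean RPKM had a median of 2.99, against 22.9 over the 8 that rose and 6.18 over the 26 not called. In the shCtrl libraries alone these medians were 5.05 for fallers, 10.9 for risers and 5.98 for genes not called. In the HIST1 cluster 8 of 41 tested rose and 18 fell. In the HIST2 cluster 0 of 13 rose and 3 fell, namely HIST2H2AB, HIST2H4A and HIST2H4B.

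Among the other fallers of JeKo-1, HIST1H2BG was the most abundant, with 27.8, 28.4 and 19.8 RPKM in shCycD1 libraries, against 44.7, 43.1 and 41.5 RPKM in shCtrl libraries (log2 change −0.77). HIST1H2BH had 5.02, 7.29 and 5.40 RPKM in shCycD1 libraries, against 14.7, 14.3 and 11.2 RPKM in shCtrl libraries (−1.12). HIST1H4J had 8.10, 8.39 and 6.40 RPKM in shCycD1 libraries, against 16.3, 16.2 and 13.5 RPKM in shCtrl libraries (−0.97). None of the 21 fallers had overlapping groups, but their calls come from these same values, so this is no separate support. Of the 21, 7 had passed the filter through the shCtrl libraries alone. Several genes that rose steeply in Granta-519 were not called here: HIST2H2AA3 had 49.4, 39.1 and 39.1 RPKM in shCycD1 libraries, against 55.7, 51.0 and 44.5 RPKM in shCtrl libraries (−0.24, adjusted p = 0.119). HIST2H2BE had 15.7, 10.8 and 12.1 RPKM in shCycD1 libraries, against 12.2, 10.0 and 12.4 RPKM in shCtrl libraries (0.14, adjusted p = 0.443), and HIST1H2BC changed by 0.35 (adjusted p = 0.122). In all 3 the groups overlapped, and these examples too were chosen with their values seen.

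**Figure D3:**
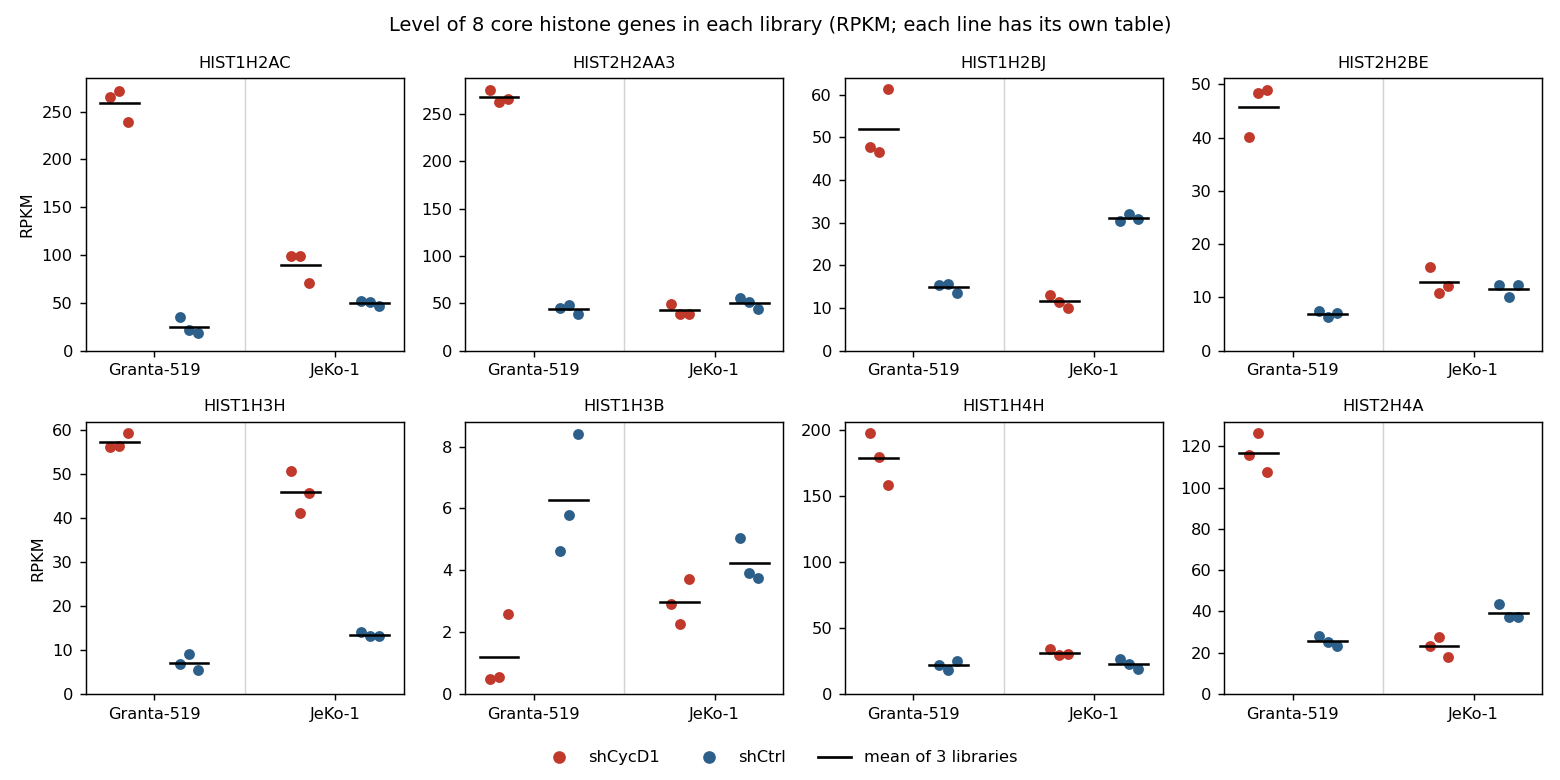
RPKM (y axis, from 0) of 8 core histone genes in every library, shCycD1 left in red and shCtrl right in blue within each line; bars are means of 3 libraries. HIST1H3H lies higher in shCycD1 in both lines, HIST1H2BJ and HIST2H4A lie higher in Granta-519 and lower in JeKo-1, and levels are to be compared within a line since each line has its own table.

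The lines were compared through the difference between their changes, in 1 fit over all 12 libraries and the 52 core histone genes that passed the filter in both. The change was higher in Granta-519 for 32 genes, 61.5% of those tested, against 19.3% of all 10653 genes tested. It was lower for 1 gene, 1.92%, against 22.6%, and 19 were not called. With spike-in scaling the change was higher in Granta-519 for 44 and lower for 1, while over all genes it was higher for 1231 and lower for 161, against 2053 and 2410 without that scaling. The median difference was 1.36 over the core histone genes and −0.02 over all genes. By class the change was higher in Granta-519 for 7 of 14 H2A, 12 of 17 H2B, 6 of 10 H3 and 7 of 11 H4 genes.

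The widest difference was that of HIST1H2BJ, which rose in Granta-519, with 47.7, 46.6 and 61.2 RPKM in shCycD1 libraries, against 15.3, 15.6 and 13.6 RPKM in shCtrl libraries (log2 change 1.76 ± 0.12, adjusted p = 0.000195). Set against its fall in JeKo-1, the difference was 3.16 ± 0.16 (adjusted p = 5.04e-07). HIST2H4B (difference 3.05 ± 0.22) and HIST2H4A (2.95 ± 0.20) likewise rose in Granta-519 and fell in JeKo-1. HIST2H2AA3 (2.85 ± 0.16), HIST1H2AD (2.81 ± 0.53) and HIST2H2AA4 (2.80 ± 0.18) rose in Granta-519 and were not called in JeKo-1. HIST1H2AC (2.57 ± 0.28) and HIST1H4H (2.56 ± 0.19) rose in both, more in Granta-519. The adjusted p of these 7 differences ran up to 0.00153. HIST1H3B was the gene with the lower change in Granta-519, at −1.71 ± 0.52 (adjusted p = 0.0217). It lost its call without Granta-519 shCycD1 replicate 1 (adjusted p = 0.0543) or 2 (adjusted p = 0.0516), or without shCtrl replicate 3 of that line (adjusted p = 0.0504).

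With the calls of both lines crossed, 7 genes rose in both, namely HIST1H2AC, HIST1H2AG, HIST1H2AI, HIST1H2AK, HIST1H2BD, HIST1H3H and HIST1H4H. These are 7 of the 36 that rose in Granta-519 and 7 of the 8 that rose in JeKo-1, the other being HIST1H2AJ. They are 13.5% of the 52 genes tested in both lines, against 14.8% of all genes tested in both. With spike-in scaling HIST1H2AG, HIST1H2BD and HIST1H4H lost their JeKo-1 calls, though their changes grew. These were 0.66 for HIST1H2AG (0.54 without that scaling), 0.52 for HIST1H2BD (0.38) and 0.59 for HIST1H4H (0.46). Another 5 fell in both: HIST1H2AL, HIST1H2BH, HIST1H3F, HIST1H4B and HIST1H4C, though with spike-in scaling the changes of HIST1H2AL and HIST1H2BH in Granta-519 turned positive and HIST1H3F and HIST1H4C lost their calls there. These 5 are 9.62% of the 52, against 13.1% of all genes. A further 8 rose in Granta-519 and fell in JeKo-1: HIST1H2BG, HIST1H2BJ, HIST1H2BL, HIST1H4I, HIST1H4J, HIST1H4K, HIST2H4A and HIST2H4B. These 8 are 15.4% of the 52, against 1.14% of all genes. With spike-in scaling HIST1H2BJ, HIST1H4I and HIST1H4J kept both calls, and the other 5 were not called in JeKo-1. The reverse was found for 0 genes, against 1.86% of all genes, and 21 that rose in Granta-519 were not called in JeKo-1. Among the 7 that rose in both, the changes were closest for HIST1H2AI, at 1.87 ± 0.27 in Granta-519 and 1.77 ± 0.18 in JeKo-1. Their difference was 0.09 ± 0.35 (adjusted p = 0.854). HIST1H2AI and the names in these counts were chosen after their values were seen.

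Divergent pairs put an H2A or H3 gene and an H2B gene on opposite strands, with starts 194 to 248 bases apart. Pairs were sought among the 59 genes with a promoter window, so genes without one, such as HIST1H2AH, could not be placed. There are 12 such pairs among these 59, and both partners were tested in 10 of them in each line. HIST1H2BF stands in 2 of the pairs, with HIST1H2AD and with HIST1H3D, whose windows are the same, so these 2 pairs are not separate. In Granta-519 both partners rose in 9 of the 10 pairs, HIST1H2AJ and HIST1H2BM being the pair in which neither was called. Paired or not, 10 of 15 tested H2A and 13 of 17 tested H2B genes rose in that line. In JeKo-1 both rose in 0 pairs, and in 3 pairs the H2A gene rose while the H2B gene fell. Paired or not, 5 of 14 tested H2A genes rose and 6 of 17 tested H2B genes fell there. With spike-in scaling 1 of the 3, HIST1H2AJ and HIST1H2BM, kept both calls, but HIST1H2BM passed the filter through the shCtrl libraries alone. That gene could enter the test only by being low in shCycD1. HIST1H2AG (change 0.66, adjusted p = 0.102) and HIST1H2BL (−0.43, adjusted p = 0.286) were not called with that scaling.

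The first of these JeKo-1 pairs was HIST1H2AG and HIST1H2BJ, whose shared window is printed above. HIST1H2AG had 10.2, 11.4 and 7.16 RPKM in shCycD1 libraries, against 6.41, 6.56 and 6.01 RPKM in shCtrl libraries (log2 change 0.54 ± 0.16, adjusted p = 0.0217), while HIST1H2BJ changed by −1.40. The log2 ratio of HIST1H2AG over HIST1H2BJ was −0.34, −0.02 and −0.47 in shCycD1 libraries, against −2.16, −2.21 and −2.26 in shCtrl libraries. In the second pair HIST1H2AJ changed by 1.30 and HIST1H2BM by −2.15. In the third HIST1H2AI changed by 1.77 and HIST1H2BL by −0.55 ± 0.16 (adjusted p = 0.0171). In each of the 3 pairs the log2 ratio was higher in every shCycD1 library of JeKo-1 than in every shCtrl library. Over all 10 pairs tested the ratio lay higher in every shCycD1 library in 6 pairs of JeKo-1 and 1 of Granta-519, and lower in 1 pair of JeKo-1 and 2 of Granta-519. In Granta-519 the ratio of HIST1H2AG over HIST1H2BJ was −0.94, −0.57 and −1.55 in shCycD1 libraries, against 0.09, −1.13 and −0.26 in shCtrl libraries, with overlapping groups. The ratios are given without a test, and no share over other gene pairs was computed to set beside these counts. Among single genes tested, every shCycD1 library lay above every shCtrl library in 39.1% and below in 30.5% in JeKo-1. In Granta-519 these shares were 29.8% and 24.2%.

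**Figure D4:**
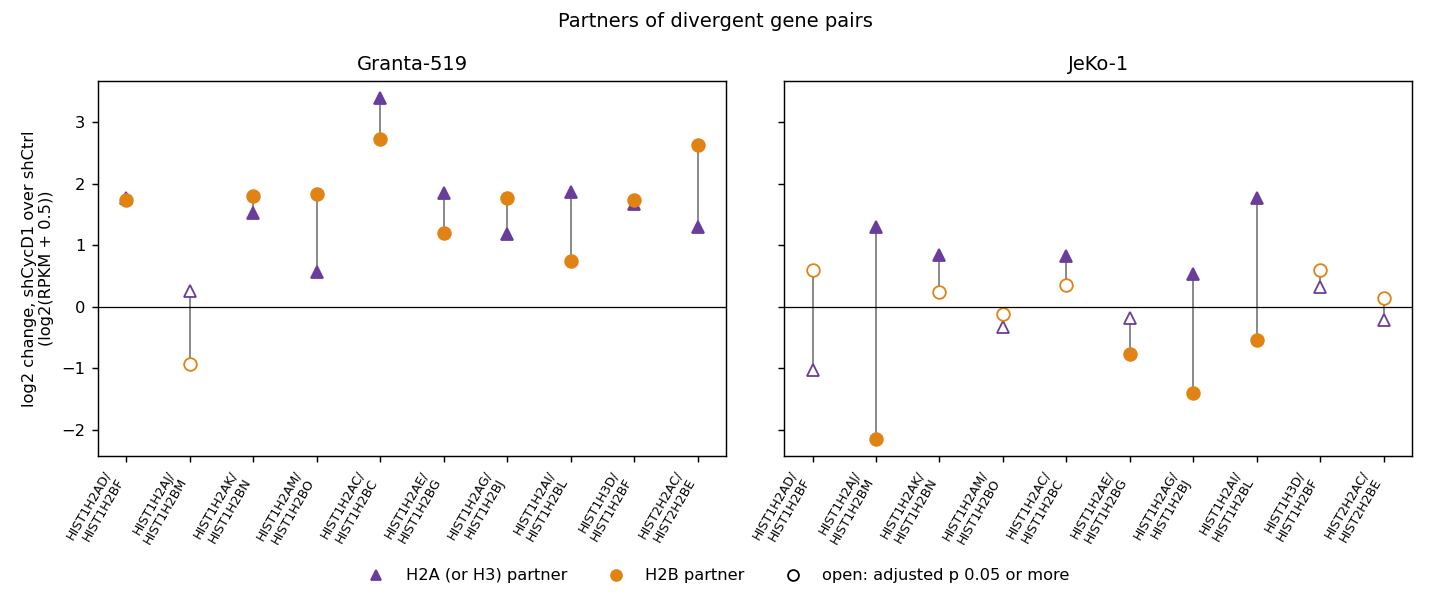
Log2 change, shCycD1 over shCtrl (y axis, log2(RPKM + 0.5) scale), of the partners of each divergent pair tested (x axis), by line; triangles are the H2A or H3 partner, circles the H2B partner, filled where the adjusted p is under 0.05. Both partners lie above 0 in 9 of 10 pairs of Granta-519, whereas 3 pairs of JeKo-1 have a filled triangle above 0 and a filled circle below. Of these circles, HIST1H2BM passed the filter through the shCtrl libraries alone.

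Risers and fallers were found both with and without the octamer in the window. In Granta-519, 16 of 22 tested genes with the octamer rose and 2 fell, against 18 risers and 3 fallers among 27 without it. In JeKo-1, 3 of 22 with the octamer rose and 7 fell, against 5 risers and 12 fallers among 27 without it. Within the H2A and H2B classes, 15 of 21 with the octamer and 7 of 8 without it rose in Granta-519, and 3 of 21 with it and 3 of 7 without it rose in JeKo-1.

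The annotated form of the transcript was set beside the changes, because the kit selects poly(A) RNA. A stem-loop was found in an annotated transcript of 32 of the 67 genes. In 22 of them the longest such transcript runs at least 200 bases past it, in 10 it ends nearer, and for the other 35 no annotated transcript holds it, since many models stop at the coding sequence. Of the genes annotated past the stem-loop, 15 of 21 tested rose and 1 fell in Granta-519, with a median log2 change of 1.47. In JeKo-1, 4 of 19 rose and 6 fell, with a median of 0.14. Of the genes whose stem-loop lies near the transcript end, 8 of 9 rose and 1 fell in Granta-519 (median 1.87), and 2 rose and 3 fell of 9 in JeKo-1 (median −0.24). Of the genes with none, 13 of 26 rose and 5 fell in Granta-519 (median 0.55), while in JeKo-1 there were 2 risers and 12 fallers among 27 (median −0.46). These groups do not part tailed from untailed genes. Of the genes listed next as known for polyadenylated transcripts, HIST1H2AC, HIST1H4H and HIST2H2BE are annotated past the stem-loop. HIST1H2BC, HIST1H2BD and HIST2H2AA3 are in the group near the end, and HIST1H2BJ and HIST1H2BK in the group with none.

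A list of 8 core histone genes known for polyadenylated transcripts (HIST1H2AC, HIST1H2BC, HIST1H2BD, HIST1H2BJ, HIST1H2BK, HIST1H4H, HIST2H2AA3 and HIST2H2BE) was read the same way. All 8 rose in Granta-519, with a median log2 change of 2.62, where 64.3% of tested core histone genes and 22.4% of all genes rose. In JeKo-1, 3 rose, 1 fell and 4 were not called, with a median of 0.24. There 14.5% of tested core histone genes and 36.7% of all genes rose, and 38.2% and 27.8% fell. The list was chosen with earlier results of these data known, so its counts are no independent support. The share of tailed and untailed transcripts was not measured, and its part in the changes was not tested.

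Other genes of histone supply and S phase were read from lists. All 15 genes of a DNA replication list fell in both lines, with a median log2 change of −1.30 in Granta-519 and of −2.54 in JeKo-1. RRM2, a subunit of ribonucleotide reductase, averaged 7.59 ± 0.278 RPKM in shCycD1 and 115 ± 12.6 RPKM in shCtrl libraries of JeKo-1 (−3.83, adjusted p = 6.18e-07). GINS2, a subunit of the replicative helicase, averaged 18.3 ± 1.51 RPKM in shCycD1 and 55.8 ± 8.60 RPKM in shCtrl libraries of Granta-519 (−1.57, adjusted p = 0.000249). With spike-in scaling 7 of the 15 fell in Granta-519 and 15 in JeKo-1. Of 4 genes for cyclins E and A and for CDK2, all fell in both lines (with spike-in scaling, 1 in Granta-519 and 3 in JeKo-1). Of 21 genes for histone transcription, 3′ end processing and decay, 1 rose and 10 fell in Granta-519. With spike-in scaling 9 of those 11 calls changed sign, 9 genes rose and 0 fell. In JeKo-1, 4 rose and 12 fell, and with spike-in scaling 0 rose and 5 fell, with no change of sign among the 16.

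SLBP, the stem-loop binding protein, averaged 37.2 ± 2.13 RPKM in shCycD1 and 61.3 ± 5.08 RPKM in shCtrl libraries of Granta-519 (log2 change −0.71, adjusted p = 0.00105), a sign that turned with spike-in scaling. The JeKo-1 libraries averaged 38.3 ± 1.07 RPKM in shCycD1 and 106 ± 7.43 RPKM in shCtrl libraries (−1.45, adjusted p = 6.41e-06). CASP8AP2, which is needed for histone gene expression in S phase, changed by −0.73 (Granta-519) and −1.27 (JeKo-1). NPAT was not called in Granta-519 (−0.15, adjusted p = 0.203) and fell by 0.66 in JeKo-1 (adjusted p = 0.00549); it is named for its role and not by the rule. NCBP2, a subunit of the nuclear cap-binding complex, changed by 0.51 (Granta-519) and 0.40 (JeKo-1).

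Histone chaperones carry histones to and from DNA, and 12 of 15 fell and 0 rose in Granta-519, although 6 of those 12 turned positive with spike-in scaling, when 2 rose and 1 fell. In JeKo-1 11 fell and 1 rose (7 and 0 with spike-in scaling). ASF1B, which hands H3 and H4 to the assembly machinery, changed by −1.52 (Granta-519) and −3.24 (JeKo-1). CHAF1B, a subunit of the assembly factor CAF-1, changed by −1.30 (Granta-519) and −2.41 (JeKo-1). Of 11 tested replacement variants, whose genes are polyadenylated and expressed outside S phase as well, 0 rose and 10 fell in Granta-519, 7 of them turning positive with spike-in scaling, and 0 rose and 8 fell in JeKo-1. With spike-in scaling 1 rose and 2 fell in Granta-519, and 0 rose and 6 fell in JeKo-1. CENPA, the H3 variant of centromeres, changed by −1.51 (Granta-519) and −3.67 (JeKo-1), and H2AFZ, which encodes H2A.Z, by −1.16 (Granta-519) and −2.07 (JeKo-1).

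Linker histone genes gave values of their own. HIST1H1C, an H1 gene known for a polyadenylated transcript, averaged 1437 ± 118 RPKM in shCycD1 and 200 ± 5.69 RPKM in shCtrl libraries of Granta-519 (log2 change 2.84 ± 0.08, adjusted p = 6.08e-05). Its JeKo-1 mean was 136 ± 14.9 RPKM in shCycD1 and 236 ± 5.88 RPKM in shCtrl libraries (−0.80 ± 0.09, adjusted p = 0.00023). Of 4 linker genes tested, 1 rose and 0 fell in Granta-519, and 0 rose and 4 fell in JeKo-1 (2 and 0, and 0 and 2, with spike-in scaling).

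The remaining core histone genes were at or near 0. In Granta-519 11 of the 67 did not pass the filter, and HIST1H2AA, HIST1H2APS1, HIST1H2BA and HIST1H4G were listed at 0 in all 6 libraries. In JeKo-1 12 did not pass, and HIST1H2AA, HIST1H2BA and HIST3H3 were listed at 0 throughout. HIST1H2BB of JeKo-1 did not pass either, being listed at 0 in the 3 shCycD1 libraries, against 1.95, 0.645 and 1.13 RPKM in shCtrl libraries.

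Copies limit what can be said of single genes. HIST2H4A and HIST2H4B, and likewise HIST2H3A and HIST2H3C, had equal values in all 6 JeKo-1 libraries, and HIST2H2AA3 and HIST2H2AA4 differed there by at most 0.0025 on the log2 scale. In Granta-519 the log2 ratio of the copies reached at most 0.09 for HIST2H2AA3 and HIST2H2AA4, 0.31 for HIST2H4A and HIST2H4B and 0.57 for HIST2H3A and HIST2H3C. With each of these 3 pairs counted as 1 gene, 33 rose and 7 fell of 53 in Granta-519, and 8 rose and 20 fell of 52 in JeKo-1. The coding sequences of other core histone genes are close as well, so reads may be shared beyond these pairs.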

How the data were processed

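Per the labels' protocols, a strand-specific poly(A) kit was used for 4 groups of 3 libraries. Per the submitters' processing notes, FastQC, TopHat2 2.1.1, limma 3.9 and GRCh37/hg19 were used. The authors deposited 1 table per line of log-scaled RPKM, which for Granta-519 the values show to be the natural log of RPKM + 1. In Granta-519 that base gave whole-read steps for 82.7% to 85.4% of values (tolerance 0.1 reads), against at most 48.4% for base 2 and 55.2% for base 10. In JeKo-1 no base exceeded 33.7%, so the natural log was assumed there and log2 tried as an alternative. Granta-519 steps fit the genomic span of a gene, which understates genes with introns. Levels were compared within a line.

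From the deposited RPKM, log2(RPKM + 0.5) was fitted for every gene with at least 1 RPKM in 3 of 6 libraries by limma 3.58.1 (R 4.3.3), with an intensity trend, Benjamini-Hochberg adjustment over all genes tested and a threshold of 0.05. Fold changes on this scale understate low genes. The difference between lines came from 1 fit over the 12 libraries. The fit was tested on simulated data. The tables hold no read totals, so no counting interval is given. The members and lists were chosen with earlier results of these data known. Genes were named per line and class by largest change in each direction among those called, and highest mean, and across lines by largest difference. Pseudocount, filter, scaling, log base, library weights, copies, replicate block and left-out libraries were varied. Python 3.11.15, pandas 2.3.3, numpy 2.4.6 and matplotlib 3.10.9 were used. The value of 1 listed gene is not reported here.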

Additional observations from a re-analysis of the deposited data

Results flagged for a closer look

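The change after cyclin D1 silencing differed between the lines in 9 core histone genes named above, by the test of the difference itself (limma, joint fit over 12 libraries, Benjamini-Hochberg adjustment). Granta-519 minus JeKo-1, the log2 differences were 3.16 for HIST1H2BJ, 3.05 for HIST2H4B, 2.95 for HIST2H4A, 2.85 for HIST2H2AA3, 2.81 for HIST1H2AD, 2.80 for HIST2H2AA4, 2.57 for HIST1H2AC and 2.56 for HIST1H4H. HIST1H3B was the gene with the opposite sign, at −1.71. HIST1H2AD is a low gene in JeKo-1, with 0.466, 4.88e-06 and 1.03 RPKM in shCycD1 libraries, against 1.21, 2.27 and 0.840 RPKM in shCtrl libraries.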

How the results depend on the processing

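Among values of single named genes, 49 were recomputed under the alternative settings, which gave 773 results in all. Of these results, 731 kept direction and side of the threshold, 38 lost the call, 1 gained it and 3 changed sign. The sign changed for HIST1H2AL (0.072) and HIST1H2BH (0.0023) of Granta-519 with spike-in scaling, and for HIST1H2BK of JeKo-1 (0.074) with quantile normalization. The 7 fallen genes of Granta-519 became 3 at a mean of at least 5 RPKM and 3 with spike-in scaling, and the 21 of JeKo-1 became 8 at that mean, where 30 were tested. The 1 gene with a lower change in Granta-519 became 0 at that mean. Leaving out 1 library at a time gave 26 to 35 risen and 5 to 6 fallen in Granta-519, 5 to 10 risen and 12 to 24 fallen in JeKo-1, and 28 to 36 higher and 0 to 1 lower differences. Class sums were rescaled by spike-ins after seeing the data, which gave log2 ratios of 2.97 for H2A (2.26 without), 2.31 for H2B (1.63), 2.01 for H3 (1.36), 2.25 for H4 (1.54) and 2.53 for all (1.83) in Granta-519, and 0.014 for H2B (−0.15) and 0.10 for all (−0.06) in JeKo-1. Reading JeKo-1 as log2 gave 8 risen and 16 fallen of 47, 31 higher and 1 lower difference, and an H3 sum at 0.21 (0.55). The replicate block gave 33 risen and 4 fallen (Granta-519), 12 risen and 25 fallen (JeKo-1), and 31 higher and 2 lower differences. Same-numbered libraries correlated at 0.0055, −0.12 and 0.03 in Granta-519, where the numbers do not show pairing. In JeKo-1 they correlated at 0.19, 0.09 and 0.10, and each library correlated best with its own number. Pairing in JeKo-1 is thus possible, and the main fit did not use it. The causes were not tested. Low depth in Granta-519 and unknown depth in JeKo-1 limit what can be said of genes near 0.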
